A study of Mus musculus with 8 samples.

Results

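The genes described here are those named for the nuclear subunits of the 5 complexes of oxidative phosphorylation. They were taken from the gene table by symbol alone: Nduf genes of the A, B, C, S and V series for complex I, Sdha to Sdhd for complex II, Uqcr genes and Cyc1 for complex III, the nuclear cytochrome c oxidase genes for complex IV and the Atp5 genes for complex V. The rule found 84 of 17518 listed genes: 39 for complex I, 4 for complex II, 9 for complex III, 15 for complex IV and 17 for complex V. Of these, 80 passed the filter on low counts and were tested, among them Ndufb4c, which GENCODE annotates as a processed pseudogene. The study concerned nanoparticles named RCMNs and the response of alveolar macrophages, the phagocytes of the airspaces, to bacterial lipopolysaccharide (LPS). The libraries hold polyadenylated RNA of MH-S cells, 1 established mouse alveolar macrophage line. The groups were cells given phosphate-buffered saline (control, n = 3), cells given LPS (n = 2, no separate dose stated) and cells given 100 ng/mL LPS with 1 µg/mL RCMNs (LPS+RCMNs, n = 3). Nothing in the labels ties a replicate to a culture of its own, so each p-value speaks of the spread among the 8 libraries, which may be technical.

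In oxidative phosphorylation, complex I passes electrons from NADH, and complex II those from succinate, to coenzyme Q. Complex III hands them to cytochrome c and complex IV to oxygen, while protons are pumped across the inner mitochondrial membrane, and complex V, the ATP synthase, lets the protons back to make ATP. Macrophages activated by LPS are known to lean on glycolysis and to use complex II, which is also a tricarboxylic acid cycle enzyme, in their inflammatory response.

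Library totals ran from 18.6 to 21.2 M (mega) counts, and 11911 genes were tested. The LPS libraries had TMM scaling factors of 0.779 and 0.803, against 1.05 to 1.13 in the others. Within their groups, control replicate 1 and LPS+RCMNs replicate 2 differed most from the others and held more of most subunit transcripts: 66 and 68 of 80 members, respectively, were above the mean of the rest of their group, by a median of 0.15 and 0.21 on the log2 scale. Results that rest on these libraries are given with and without them. Macrophage markers were present, with a summed level of 5080 to 5990 CPM (counts per M of scaled library size) in control, 5670 to 6930 in LPS and 6630 to 8270 in LPS+RCMNs libraries. They did not move as 1: of 12 tested, 4 rose with LPS and 5 fell (31.4% and 32.1% of all tested genes). In LPS+RCMNs against LPS 9 were higher and 2 lower (29.8% and 29.5%). Lyz2 had the largest level in the sum, at 1970 to 2320 CPM in control and 3820 and 2980 in LPS libraries. Mrc1 was at 235 to 301 and at 78.5 and 64.6 CPM, in the same order. The alveolar macrophage genes Marco, Siglecf and Chil3 were at 1.32 CPM or less in every library. Of 5 tested erythroid markers, 5 rose with LPS, and the summed level of the 9 listed was 1.21 to 21.1 CPM in control, 4360 to 5620 in LPS and 0.911 to 34.4 in LPS+RCMNs libraries; Slc4a1, Epb42 and Klf1 were at 0.545 CPM or less throughout. Of 4 tested neutrophil markers, 3 rose with LPS and 1 fell, with summed levels of 9.45 to 11.8, 21.8 to 42.7 and 8.61 to 13.1 CPM in the same order, and Ly6g was at 0 in both LPS libraries. Between groups, the summed erythroid and neutrophil levels moved as most subunit genes did. Within the control and LPS+RCMNs groups, the library with more subunit transcript had the least globin, which belongs to the erythroid markers. Globin was at 0.477 CPM in control replicate 1, against 20.4 and 20.1 in replicates 2 and 3. In LPS+RCMNs replicate 2 it was at 0.608, against 29.9 and 33.5 in replicates 1 and 3. In LPS, replicate 2 had more globin (5590 against 4330 CPM) and more of 48 of 80 members. The part of these transcripts in the results was not tested. Lymphocyte, epithelial, and fibroblast and endothelial markers summed to at most 1.58, 0.424 and 3.63 CPM. The 13 subunits encoded by mitochondrial DNA were not analysed here.

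The letters before the start sites are shown for 1 member of each complex, and any link between them and the changes in level was not tested. The factors NRF1 and GABPA are known regulators of nuclear genes for respiratory subunits, and each member shown is the one of highest mean FPKM in its complex whose 250 bases before the start hold NRF1 letters (GCGCANGCG) or the ETS family letters that GABPA shares (CCGGAAG) on either strand. The sequences are from RefSeq on the GRCm38.p6 build, all on the minus strand, 5′ to 3′ towards the start, with those letters in capitals. Ndufa8, an accessory subunit of complex I, has 2 NRF1 matches at chr2:36049339-36049588.
Ndufa8: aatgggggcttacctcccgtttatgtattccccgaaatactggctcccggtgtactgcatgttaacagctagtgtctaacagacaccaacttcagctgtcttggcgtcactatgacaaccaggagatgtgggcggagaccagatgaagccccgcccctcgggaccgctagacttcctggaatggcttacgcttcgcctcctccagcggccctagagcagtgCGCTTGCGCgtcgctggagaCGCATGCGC
Sdhd, a membrane anchor of complex II, has 1 NRF1 and 1 ETS match at chr9:50603850-50604099.
Sdhd: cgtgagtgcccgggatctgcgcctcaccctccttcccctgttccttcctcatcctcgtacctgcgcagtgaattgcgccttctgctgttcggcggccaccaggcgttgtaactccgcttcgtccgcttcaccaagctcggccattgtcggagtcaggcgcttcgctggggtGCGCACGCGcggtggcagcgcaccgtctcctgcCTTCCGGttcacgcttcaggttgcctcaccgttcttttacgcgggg
Uqcrh, the hinge subunit of complex III, has 1 ETS match at chr4:116075071-116075320.
Uqcrh: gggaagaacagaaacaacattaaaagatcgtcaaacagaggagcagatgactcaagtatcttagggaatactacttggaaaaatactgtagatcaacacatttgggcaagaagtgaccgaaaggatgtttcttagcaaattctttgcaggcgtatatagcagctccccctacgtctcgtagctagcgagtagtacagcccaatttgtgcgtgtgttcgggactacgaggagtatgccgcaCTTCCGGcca
Cox6b1, a subunit of complex IV on the intermembrane side, has 1 ETS match at chr7:30626115-30626364.
Cox6b1: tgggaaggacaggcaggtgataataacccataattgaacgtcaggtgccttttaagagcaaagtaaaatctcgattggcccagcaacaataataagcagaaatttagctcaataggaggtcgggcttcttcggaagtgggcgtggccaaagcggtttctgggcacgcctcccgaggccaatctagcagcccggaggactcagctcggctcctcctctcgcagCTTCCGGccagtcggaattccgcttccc
Atp5l, subunit g of the ATP synthase, has 1 NRF1 and 1 ETS match at chr9:44920743-44920992.
Atp5l: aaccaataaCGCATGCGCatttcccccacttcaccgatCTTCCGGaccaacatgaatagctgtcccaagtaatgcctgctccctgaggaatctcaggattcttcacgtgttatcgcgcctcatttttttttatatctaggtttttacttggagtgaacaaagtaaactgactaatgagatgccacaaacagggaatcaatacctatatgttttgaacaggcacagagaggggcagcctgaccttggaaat

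RefSeq windows of 300 bases (250 before to 50 after the start) were matched for 67 of the 84 members and for 9629 tested genes. NRF1 letters were in 29.9% of the members' windows (20 of 67), in 15.5% of the tested genes' and in 7.03% of all 27025 genes'. YY1 letters (AANATGGC, for a factor also known at mitochondrial genes) were in 25.4%, 10.4% and 6.96%, in the same order. ETS letters were in 25.4%, 20.7% and 9.93%, and the letters of the orphan receptor ERR (TCAAGGTCA) in 2.99%, 0.301% and 0.466%. SP1 letters (GGGCGG) were in 40.3% of the members' windows against 66.7% of the tested genes', and the CCAAT box in 43.3% against 43.8%. The NF-kB site, by name, was in 8.96% against 12.2%. By complex, NRF1 letters were in 8 of 33 windows of complex I, 2 of 3 of complex II, 2 of 5 of complex III, 1 of 11 of complex IV and 7 of 15 of complex V, and YY1 letters in 12 of the 33 of complex I. Both strands were searched, no motif of the list contains another, though single matches may overlap, and a match is a description of letters, not of binding.

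LPS-treated cells held more transcript of nearly every subunit gene than control cells on the CPM scale. By edgeR's quasi-likelihood test with Benjamini-Hochberg adjustment over the 11911 tested genes, 78 of 80 members were called higher at an adjusted p below 0.05 and none lower, with a median log2 fold change of 1.54, but with a surface on gene length and level removed 11 were called higher and 14 lower, with a median of -0.02. Of all tested genes, 31.4% were called higher and 32.1% lower, with a median log2 fold change of -0.04. An unadjusted p below 0.05 was reached by 79 of 80 members and by 7967 of all 11911 tested genes. DESeq2 called 78 members higher and 0 lower. In deposited FPKM (counts per kb of gene and M reads), both LPS libraries were above all 3 control libraries for 74 of 80 members, against 22.1% of all tested genes. The 6 exceptions were Atp5a1, Cox7a1, Ndufs1, Sdha, Sdhb and Sdhc. In bulk RNA, fewer cells of a type and less RNA per cell cannot be told apart.

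**Figure D1:**
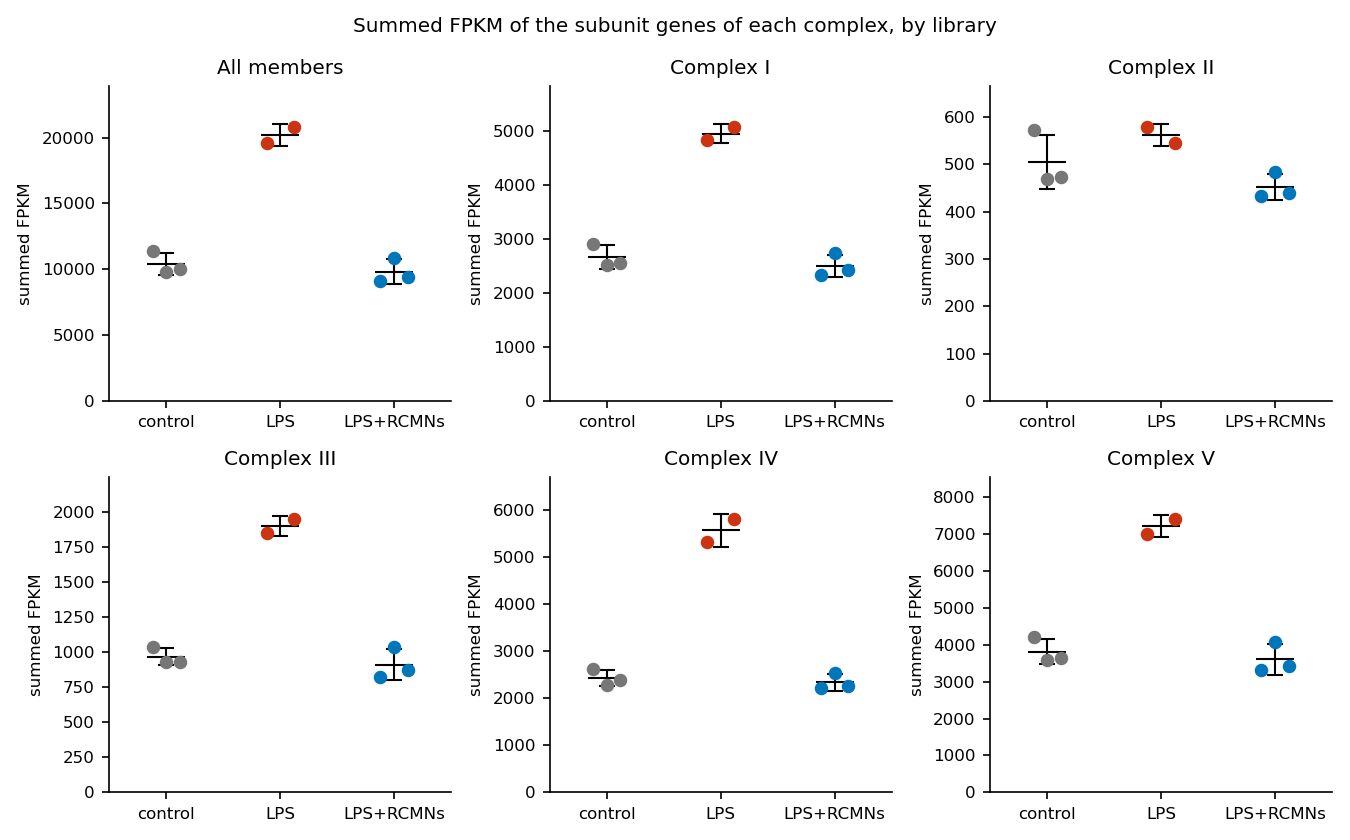
Summed FPKM (y axis, from 0, a different scale in each panel) of all members and of each complex in every library; points are libraries, grey for control, red for LPS and blue for LPS+RCMNs, with the mean and SD in black. For all members the LPS libraries sat at 19587 and 20803, above control (9808 to 11358) and LPS+RCMNs (9106 to 10875), while for complex II the groups control and LPS overlapped.

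Summed FPKM of the 84 genes was 11358, 9808 and 9993 in control replicates 1, 2 and 3, 19587 and 20803 in LPS replicates 1 and 2, and 9106, 10875 and 9414 in LPS+RCMNs replicates 1, 2 and 3. The LPS libraries were both above every other library, and the other 6 overlapped. As a share of all FPKM in a library, which removes the higher FPKM total of the LPS libraries, the members took 2.19% ± 0.16 in control (SD, n = 3), 3.0% ± 0.0707 in LPS (n = 2) and 2.05% ± 0.167 in LPS+RCMNs (n = 3). The share of complex I was 0.561% ± 0.0413 in control and 0.735% ± 0.0117 in LPS, and that of complex IV 0.513% ± 0.031 and 0.829% ± 0.036, without overlap in either. For complex II it was lower in LPS, 0.0873% and 0.0802% in the 2 libraries against 0.119%, 0.0999% and 0.1% in control, although all 4 of its genes were called higher on the CPM scale.

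Within a complex, transcript levels were far from equal. In control cells the genes placed in complex I by symbol ran from 5.67 FPKM (Ndufa11) to 223 (Ndufa4), a ratio of 39.3, with a median of 60.8. Ndufa4 is found with complex IV, so the upper end may not be a complex I level. The level of Ndufa11 rests on a length implied by counts and FPKM of 2613 bases, against 545 for its GENCODE principal transcript, so the ratio is uncertain, and the next lowest gene was Ndufb2 at 24.2 (793 bases implied, 2413 in GENCODE). Complex II spanned a ratio of 2.36 (Sdhb 86.2 to Sdhc 203, whose implied length of 1130 bases compares with 3171 in GENCODE), complex III 5.18 (Uqcrq 34.1 to Uqcrh 176) and complex V 9.21 (Atp5k 72.5 to Atp5b 668). The 3 members of highest mean FPKM were Atp5b, Cox4i1 and Cox7c.

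Among the 7 nuclear core subunits of complex I, which carry the electron path from NADH to coenzyme Q, 6 rose with LPS and the median log2 fold change was 1.16. With the length and level surface removed, 1 of the 7 was called higher and none lower (median -0.02). Among the 30 other tested complex I genes, mostly accessory subunits around this core, all 30 rose, with a median of 1.55, where 31.4% of all tested genes rose. After removal of the surface, 6 of the 30 were called higher and 5 lower, with a median of -0.01 (21.2% and 21.7% of all tested genes). The core genes were also the longer ones, with a median gene length of 1491 bases against 630, as implied by the deposited counts and FPKM. The difference between core and accessory genes was not tested.

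Ndufv1, which binds FMN and takes the electrons from NADH, was at 75.4, 62.4 and 65.3 FPKM in control, 93.8 and 89.5 in LPS, and 59.2, 67.2 and 61.2 in LPS+RCMNs libraries. Both LPS libraries were above the others, with a log2 fold change of 0.93 ± 0.10 (SE) on the CPM scale and an adjusted p of 4.3e-05 in edgeR. Ndufs1, the largest iron-sulphur subunit, was at 218, 201 and 206 CPM in control, 246 and 231 in LPS, and 193, 201 and 199 in LPS+RCMNs libraries. Its log2 fold change of 0.20 ± 0.08 missed the threshold (adjusted p = 0.0684, edgeR), and passed it at 0.28 without control replicate 1 and LPS+RCMNs replicate 2 (adjusted p = 0.00187). In FPKM the order was turned: 92.5, 82.0 and 84.3 in control against 71.5 and 69.2 in LPS, with no overlap, and limma on log2(FPKM + 1) called it lower by a log2 change of -0.29 (adjusted p = 0.00926). The iron-sulphur subunits Ndufs7 and Ndufs8 rose by 1.42 ± 0.15 and 1.35 ± 0.15 (adjusted p of 4.03e-05 and 5.67e-05, edgeR).

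Among the accessory subunits, Ndufa5 moved most, from 37.0, 35.8 and 38.0 FPKM in control to 92.6 and 112 in LPS, a log2 fold change of 1.96 ± 0.13. The LPS values were above all others, since LPS+RCMNs libraries held 35.6, 42.3 and 33.7. Ndufa1 and Ndufb9, accessory subunits of the membrane arm, rose by 1.58 ± 0.13 and 1.37 ± 0.11, Ndufa2 rose by 1.83 ± 0.09 and Ndufa4 by 1.49 ± 0.10. Ndufv3, an accessory subunit with an implied length of 669 bases (1582 in GENCODE), rose by 0.65 ± 0.11, from 41.9, 38.2 and 39.5 FPKM to 57.8 and 56.8. With the surface removed Ndufv3 was called lower (-0.72, adjusted p = 0.000964, edgeR), and on GENCODE length it was not called (0.16, adjusted p = 0.232). The edgeR adjusted p values of the rises ran from 1.03e-06 for Ndufa2 to 0.000644 for Ndufv3.

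Complex II had the lowest median of the 5 complexes, 0.64 against 1.44 in complex I, 1.59 in complex III, 1.61 in complex IV and 1.55 in complex V; the difference between complexes was not tested. Sdha, the flavoprotein that oxidises succinate, was at 312, 260 and 261 CPM in control, 372 and 319 in LPS, and 250, 270 and 245 in LPS+RCMNs libraries. The LPS libraries were above the others by this scale (log2 fold change 0.32 ± 0.11, adjusted p = 0.036, edgeR), but in FPKM the LPS values of 103 and 91.1 overlapped the control values of 126, 101 and 102. Sdhb, the iron-sulphur protein, rose by 0.69 ± 0.12 on the CPM scale, and in FPKM its LPS values of 103 and 96.0 straddled the 98.7 of control replicate 1. The anchors Sdhc and Sdhd rose by 0.58 ± 0.09 and 0.98 ± 0.13 (adjusted p of 0.000365 and 0.000153, edgeR). Sdhc was at 222, 194 and 193 FPKM in control and 222 and 211 in LPS, so control replicate 1 reached the LPS level, while Sdhd, at 125, 95.8 and 98.1 against 151 and 148, did not overlap.

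**Figure D2:**
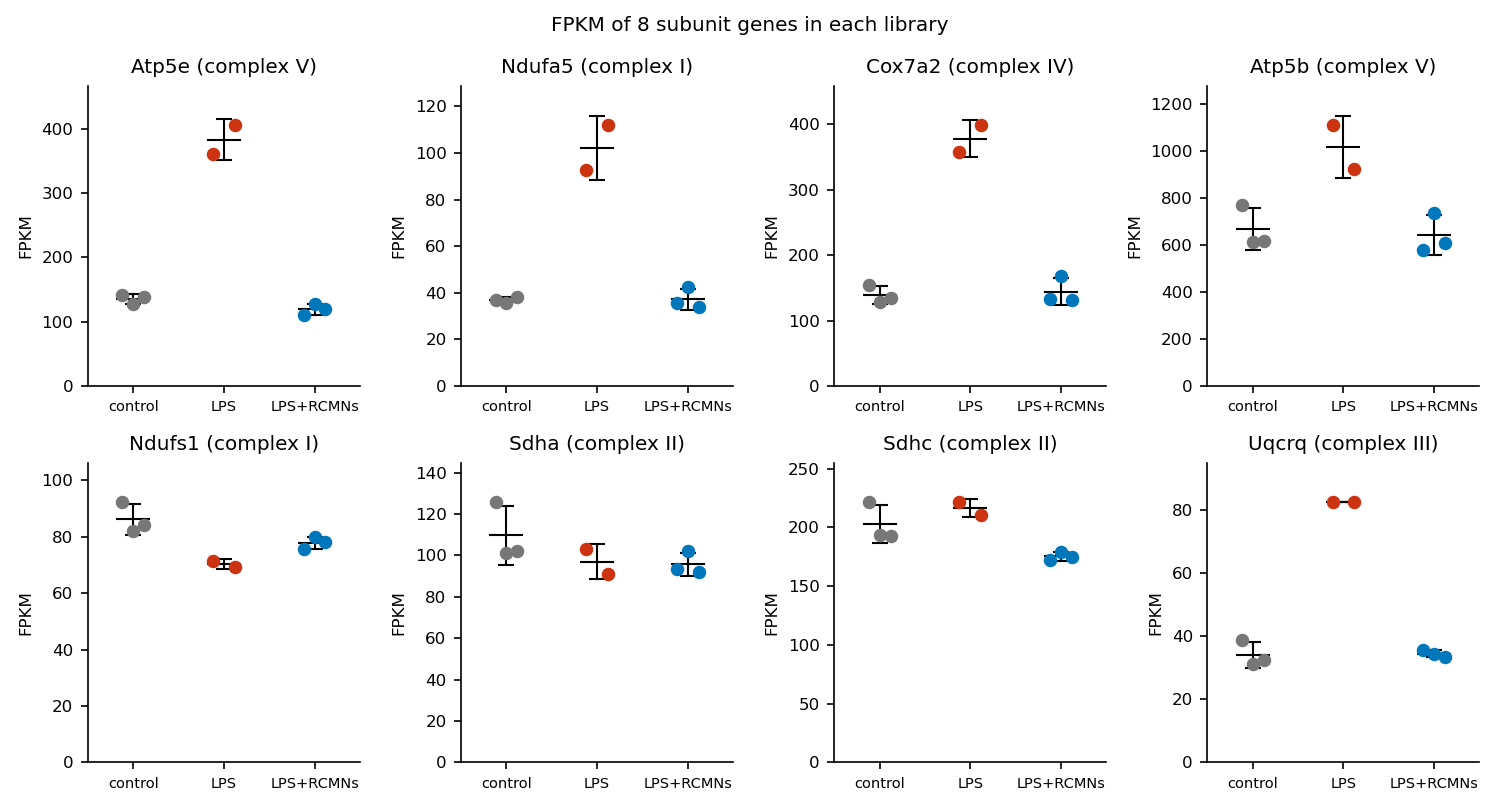
FPKM (y axis, from 0) of 8 subunit genes in each library; points are libraries, and the black line and bars are the mean and SD of control (grey, n = 3), LPS (red, n = 2) and LPS+RCMNs (blue, n = 3). Atp5e, Ndufa5, Cox7a2, Atp5b and Uqcrq were higher in both LPS libraries than in any other, while the LPS values of Ndufs1 were below control and those of Sdha and Sdhc overlapped it.

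In complex III all 9 genes rose, where 31.4% of all tested genes did. With the surface removed 2 were called higher and none lower, against 21.2% and 21.7% of all. The 4 catalytic and core proteins had a median of 1.04 and a median length of 1436 bases, and the 5 small subunits 1.74 and 497 bases. Cyc1, cytochrome c1, was at 93.8, 68.8 and 72.3 FPKM in control, 143 and 121 in LPS, and 69.0, 111 and 77 in LPS+RCMNs libraries. LPS+RCMNs replicate 2 came nearest to the LPS group, which stayed above it (log2 fold change 1.24 ± 0.20 against control, adjusted p = 0.000513, edgeR). Uqcrfs1, the Rieske iron-sulphur protein, rose by 1.11 ± 0.12, and the core proteins Uqcrc1 and Uqcrc2 by 0.96 ± 0.18 and 0.95 ± 0.10. Among the small subunits Uqcr11 moved most (1.81 ± 0.15), and Uqcrq, a small membrane subunit, rose by 1.77 ± 0.10 from 38.8, 31.2 and 32.3 FPKM to 82.6 and 82.5.

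In complex IV 12 of 13 tested genes rose (31.4% of all tested genes), and the median was 1.61. With the surface removed 2 were called higher and 3 lower (median -0.09), against 21.2% and 21.7% of all. Cox4i1, one of the largest nuclear subunits, was at 640, 536 and 538 FPKM in control, 1299 and 1239 in LPS, and 505, 594 and 523 in LPS+RCMNs libraries. No LPS value came near those of the other groups (log2 fold change 1.64 ± 0.11, adjusted p = 2.86e-06, edgeR). Cox7a2, the common form of subunit 7a, moved most (1.93 ± 0.12), from 155, 129 and 135 FPKM to 358 and 399. Cox5a and Cox5b, matrix-side subunits, rose by 1.60 ± 0.13 and 1.87 ± 0.10, Cox7c by 1.75 ± 0.12 and Cox8a, a small membrane subunit, by 1.71 ± 0.08. Cox7a1, the heart and muscle form of subunit 7a, was at 23, 10 and 14 unscaled counts in control and 18 and 18 in LPS. In FPKM its LPS values of 2.68 and 2.76 overlapped the control values of 3.57, 1.61 and 2.25. In CPM the groups did not overlap, at 1.09 and 1.09 in LPS against 0.997, 0.466 and 0.65 in control. Its log2 fold change of 0.62 ± 0.39 on the CPM scale missed the threshold (adjusted p = 0.189, edgeR). Without the 2 libraries that stood apart it was 1.01 (adjusted p = 0.0347).

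In complex V all 17 genes rose, with a median of 1.55, where 31.4% of all tested genes rose. None of the 17 was called higher with the surface removed and 4 were called lower (21.2% and 21.7% of all), with a median of -0.10. The F1 head, where ATP is made, held both extremes. Atp5a1, its alpha subunit, rose least (0.74 ± 0.15), at 496, 369 and 382 FPKM in control and 514 and 474 in LPS, so control replicate 1 lay between the LPS values. Atp5e, its epsilon subunit, rose most (1.99 ± 0.09, adjusted p = 8.83e-07, edgeR), from 142, 127 and 138 FPKM to 361 and 406, with 111, 127 and 119 in LPS+RCMNs libraries. Atp5b, the catalytic beta subunit, was at 772, 614 and 617 FPKM in control, 1111 and 923 in LPS, and 580, 738 and 609 in LPS+RCMNs libraries, a log2 fold change of 1.10 ± 0.14. Implied gene length was 2383 bases for Atp5a1, 1830 for Atp5b and 365 for Atp5e.

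**Figure D3:**
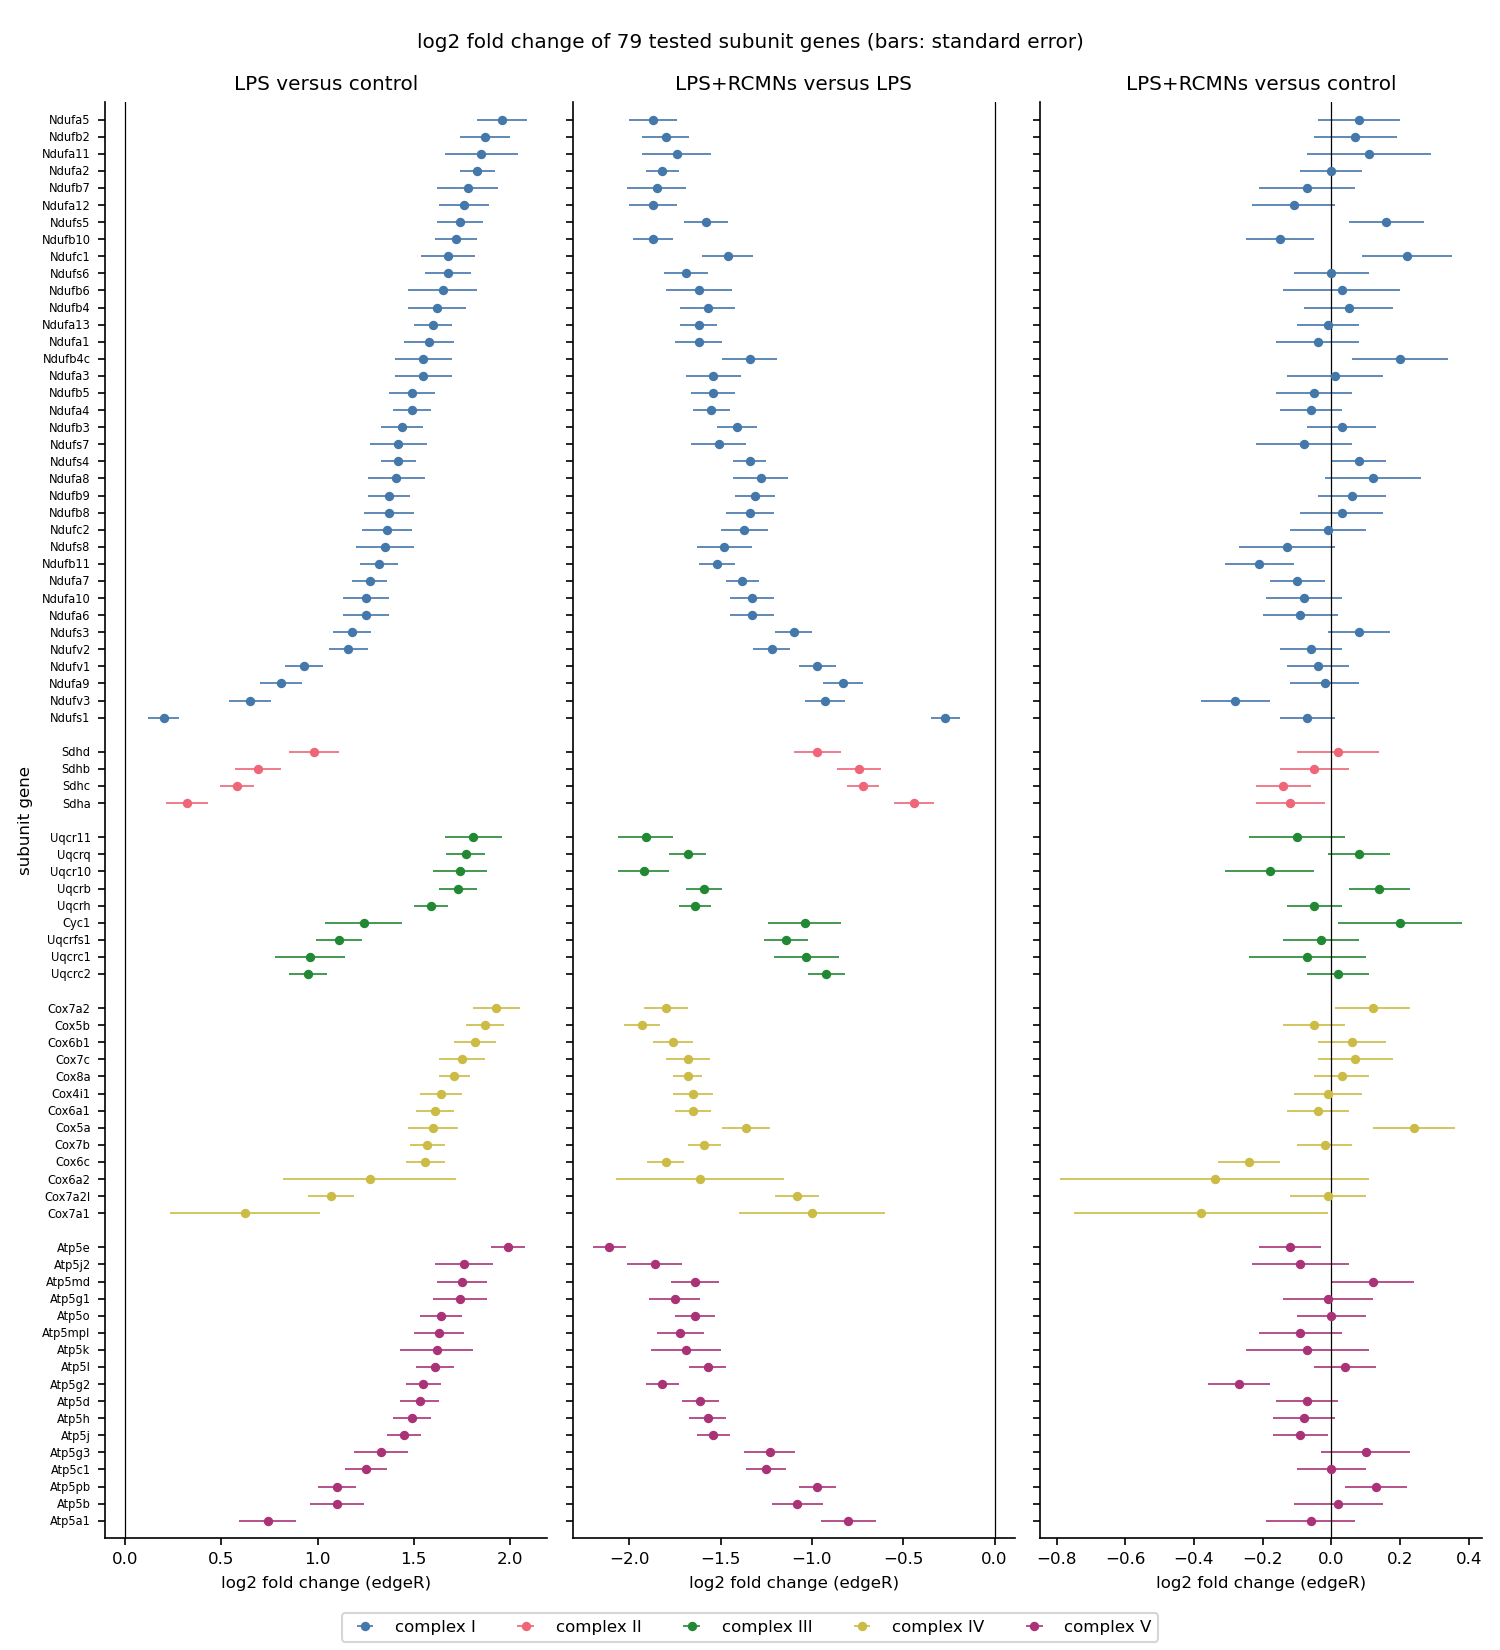
log2 fold change (x axis, edgeR, CPM scale; a different scale in each panel) of 79 of the 80 tested members, 1 row a gene, grouped by complex from I at the top to V, with standard errors as bars. In LPS versus control the points ran from 0.20 (Ndufs1) to 1.99 (Atp5e), in LPS+RCMNs versus LPS from -2.11 (Atp5e) to -0.27 (Ndufs1), and in LPS+RCMNs versus control from -0.38 (Cox7a1) to 0.24 (Cox5a); for Ndufs1 and Sdha the direction of LPS versus control turned in FPKM, and for many members both larger contrasts turn sign when length and level are removed.

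The size of the difference ran with gene length. Across the 80 members the rank correlation of log2 fold change with implied length was -0.56 for LPS versus control, against -0.61 across 11692 tested genes with a length (a description across genes of the same libraries, which are not independent replicates). Members under 500 bases (25 genes) had a median log2 fold change of 1.68, those of 500 to 750 bases (25 genes) 1.49, those of 1000 to 1500 bases (13 genes) 1.16, those of 1500 to 2000 bases (6 genes) 0.95, and those of 2000 to 3000 bases (4 genes) 0.53. Other tested genes of like length whose mean FPKM reached 30 followed the same course: 1.79 (70 genes), 1.56 (167), 1.02 (459), 0.68 (494) and 0.32 (725), in the same order. In the bin of 750 to 1000 bases the 7 members had a median of 1.53 and the 199 other genes 1.36.

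These other genes of like length had a mean FPKM of at least 30 and include cytosolic ribosomal protein genes. Of them, 97.1% under 500 bases and 98.2% of 500 to 750 bases were called higher in LPS. Of the members there, 96.0% and 100% were. The floor of 30 was not applied to members, and Cox7a1, under 500 bases and not called, had a mean FPKM of 2.28. Of 491 tested genes under 1000 bases whose mean FPKM reached 30, 55 were members and 62 were cytosolic ribosomal protein genes. The ribosomal protein genes under 500 bases (26 genes) had a median of 1.87. In the 3 bins from 1000 to 3000 bases the members' medians were above those of the other genes, a difference that was not tested.

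**Figure D4:**
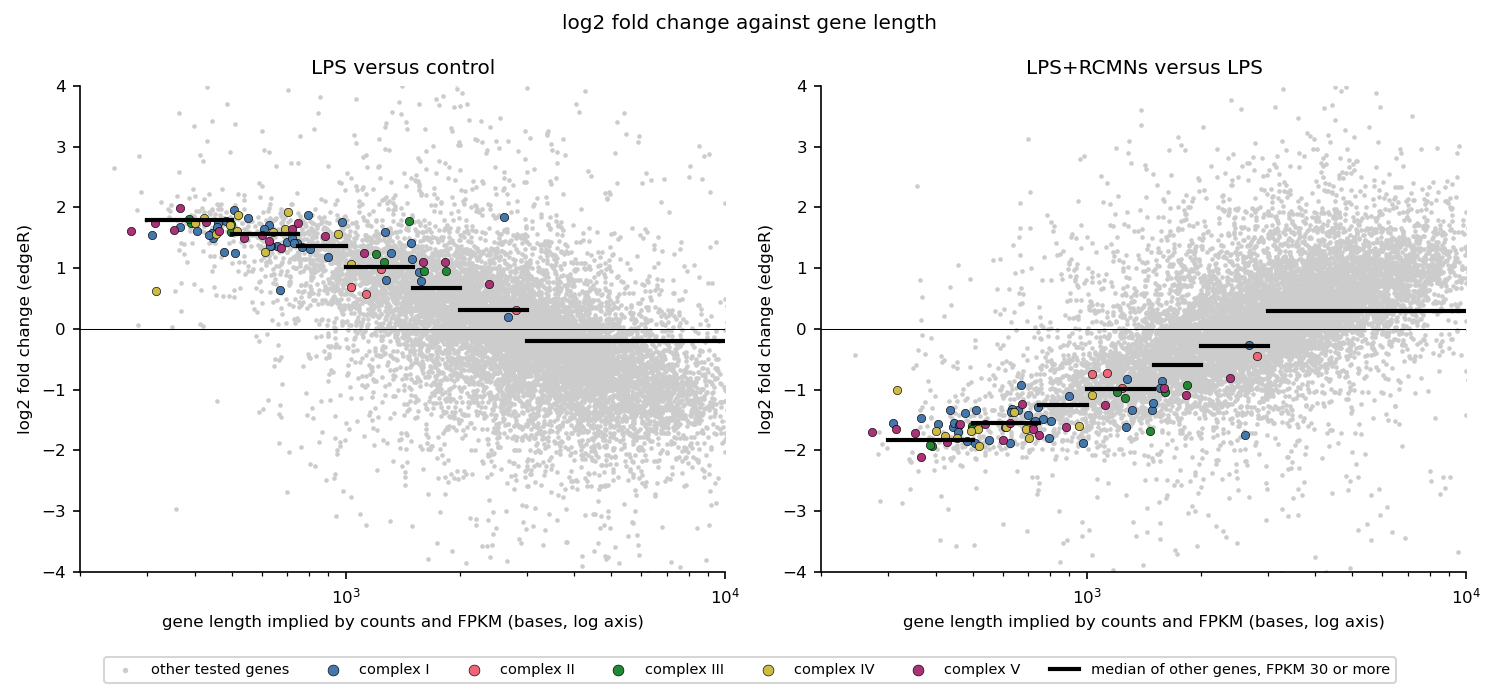
log2 fold change (y axis, edgeR) against the gene length implied by counts and FPKM (x axis, bases, log scale) for LPS versus control and LPS+RCMNs versus LPS; coloured points are members by complex, grey points are other tested genes, black bars are medians of other genes whose mean FPKM reached 30 in each length bin, and points beyond the axes are not drawn. Members under 500 bases had medians of 1.68 and -1.64 and other genes of like length that reached this FPKM 1.79 and -1.82. With the length and level surface removed these members' medians were -0.19 and 0.09.

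A loess surface on length and mean level was then fitted in each library over all tested genes with a length and removed. For LPS versus control this left 11 of 80 members called higher (21.2% of all tested genes were) and 14 called lower (21.7% of all), with 55 not called. By complex, 7 genes of complex I were called higher and 5 lower, 2 of complex III higher, 2 of complex IV higher and 3 lower, and 4 of complex V lower. Of complex II, Sdhb and Sdhc were called lower, by -0.44 and -0.59 (adjusted p of 0.00786 and 0.000923, edgeR). The 9 members called higher also when the surface was fitted without members and ribosomal protein genes, and when GENCODE transcript length replaced the implied length, were Cox7a2, Cox7b, Ndufa12, Ndufa13, Ndufb2, Ndufs4, Ndufv2, Uqcrc2 and Uqcrq. The 3 called lower in all of these were Ndufa4, Ndufa7 and Sdhb.

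Uqcrq kept a log2 fold change of 1.05 after the surface was removed (adjusted p = 8.24e-05, edgeR), and 0.64 on GENCODE length. Its implied length, 1471 bases, was longer than its GENCODE principal transcript of 963. Ndufs4, an accessory subunit that complex I needs to be stable, kept 0.72 and Ndufa13, an accessory subunit, 0.77 (adjusted p of 0.000319 and 0.000313, edgeR). Ndufa11 kept 1.94, but its implied length of 2613 bases is far from the 545 of its GENCODE transcript, and on GENCODE length it was not called. For Sdhc the length decides the sign: -0.59 on the implied 1130 bases and 0.45 on the 3171 of its GENCODE transcript, both called. For Atp5g1 it decides the call: 0.28 on 750 bases (adjusted p = 0.0909, edgeR) and 1.54 on 2675 (adjusted p = 6.71e-05).

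**Figure D5:**
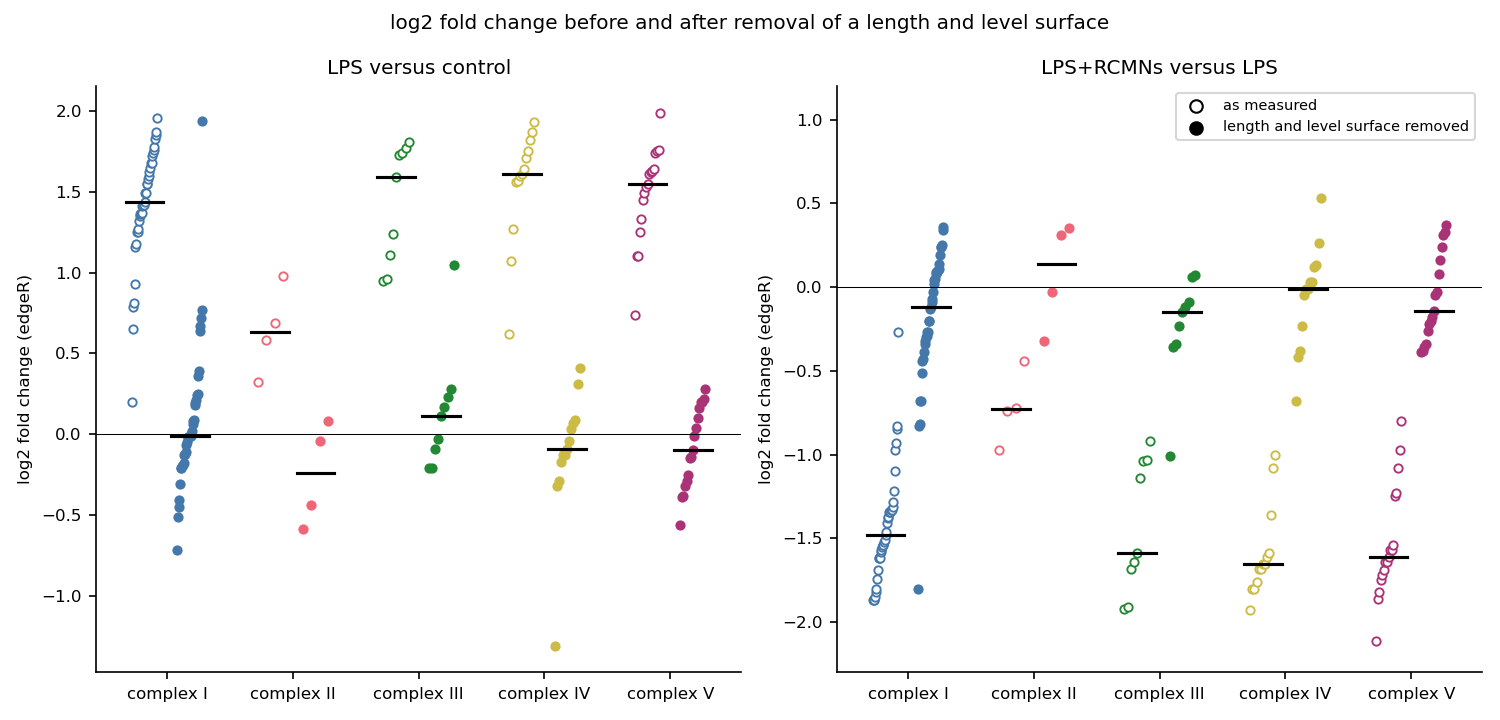
log2 fold change (y axis, edgeR) of each tested member by complex, open circles as measured and filled circles after removal of the length and level surface, with medians as black bars, for LPS versus control and LPS+RCMNs versus LPS. The medians as measured, 0.64 to 1.61 and -1.65 to -0.73 over the 5 complexes, came to lie between -0.24 and 0.11 and between -0.15 and 0.14.

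On the FPKM scale the median of all tested genes itself moved, by -0.33 in LPS versus control and 0.27 in LPS+RCMNs versus LPS (limma on log2(FPKM + 1)). The members' medians were 1.04 and -1.13, which is 1.37 above and -1.40 from those of all genes. By this test 72 of 80 members were called higher in LPS (17.7% of all tested genes were) and 1 lower, Ndufs1 (49.7% of all were). Relative to the median of all genes, the smallest member value was 0.04, for Ndufs1.

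Cells given LPS with RCMNs held less transcript of the subunit genes than cells given LPS. By edgeR's quasi-likelihood test 79 of 80 members were called lower and none higher, with a median log2 fold change of -1.55, but with the length and level surface removed 20 were called lower and 6 higher, with a median of -0.09. Of all tested genes, 29.5% were called lower and 29.8% higher. DESeq2 also called 79 lower and 0 higher. In FPKM all 3 LPS+RCMNs libraries were below both LPS libraries for 78 of 80 members (22.1% of all tested genes), the exceptions being Ndufs1 and Sdha. This comparison shares the 2 LPS libraries with LPS versus control, so the values are set side by side and their likeness is no separate result.

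By complex the medians were -1.48 (I), -0.73 (II), -1.59 (III), -1.65 (IV) and -1.61 (V), and the difference between them was not tested. Atp5e moved most, at -2.11 ± 0.09 (adjusted p = 7.8e-07, edgeR), and Ndufs1 least, at -0.27 ± 0.08 (adjusted p = 0.0211). In FPKM Ndufs1 went the other way, with 75.7, 79.8 and 78.3 in LPS+RCMNs libraries against 71.5 and 69.2 in LPS. Ndufb10, an accessory subunit of the membrane arm of complex I, fell by 1.87 ± 0.11 and Cox5b by 1.93 ± 0.10, from 512 and 556 FPKM in LPS to 179, 208 and 175. Uqcr10, a small subunit of complex III, was at 347 and 363 FPKM in LPS and 104, 152 and 119 in LPS+RCMNs libraries (-1.92 ± 0.14). In complex II Sdha fell by 0.44 ± 0.11, Sdhb by 0.74 ± 0.12, Sdhc by 0.72 ± 0.09 and Sdhd by 0.97 ± 0.13. Cox7a1 was not called, at -1.0 ± 0.40 (adjusted p = 0.0551, edgeR), and was at -0.98 without the 2 libraries that stood apart (adjusted p = 0.0411).

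The dependence on length was the mirror of that in LPS: the rank correlation with implied length was 0.58 across the members and 0.61 across all tested genes with a length. Members under 500 bases had a median of -1.64 and other genes of like length whose mean FPKM reached 30 one of -1.82. At 500 to 750 bases the values were -1.57 and -1.55, and at 2000 to 3000 bases -0.62 and -0.28. With the surface removed, the 20 called lower compare with 20.1% of all tested genes and the 6 called higher with 18.8%. The genes called lower under all 3 versions of the surface numbered 19, among them Uqcrq (-1.01), Ndufa13 (-0.83), Ndufa12 (-0.82), an accessory subunit of complex I, and Ndufs4 (-0.68). Of the 6 called higher, 2 were Sdhb (0.31) and Sdhc (0.35), and no member was called higher on GENCODE length. On that length Sdhc and Ndufv3, also of the 6, were called lower (-0.69 and -0.45, adjusted p of 0.000501 and 0.00689, edgeR). The rest of the 6, Sdhb (0.21), Atp5l (0.10), Atp5md (0.26) and Ndufa4 (0.10), were not called on it.

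Between LPS+RCMNs and control cells, no member was called in either direction by edgeR or DESeq2, where 7.56% of all tested genes were called by edgeR. The median log2 fold change was -0.02 with a median standard error of 0.11, and 3 members had an unadjusted p below 0.05: Atp5g2, Cox6c and Ndufv3. Of all 11911 tested genes, 2727 had such a p. The 80 values ran from -0.38 ± 0.37 (Cox7a1) to 0.24 ± 0.12 (Cox5a, adjusted p = 0.255). A p that misses the threshold does not show that the levels were equal. The count depended on the 2 libraries that differed most within their groups: without control replicate 1 and LPS+RCMNs replicate 2, 6 members were called, where 25.5% of all tested genes were. Of these, Cox7a2l, a factor of respiratory supercomplexes, was higher (0.20, against -0.01 with all libraries), and Atp5g2 (-0.27), Cox6c (-0.28), Ndufb10 (-0.23), Ndufb11 (-0.23) and Uqcr10 (-0.36) were lower. Without LPS+RCMNs replicate 2 alone, 2 members were called lower.

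Atp5g2, which encodes the c subunit of the proton-driven rotor, was at 194, 175 and 179 FPKM in control and 133, 157 and 144 in LPS+RCMNs libraries, with no overlap. Its log2 fold change was -0.27 ± 0.09 (adjusted p = 0.0981, edgeR), and it was called lower with the length and level surface removed (-0.35, adjusted p = 0.0198) and by limma on log2(FPKM + 1) (-0.34, adjusted p = 0.0462). Cox6c, a small membrane subunit of complex IV, was at 208, 201 and 233 FPKM in control and 168, 180 and 170 in LPS+RCMNs libraries, also without overlap. It was not called with all libraries (-0.24 ± 0.09, adjusted p = 0.163, edgeR) and was with the surface removed (-0.34, adjusted p = 0.0321), as was Ndufv3 (-0.38, adjusted p = 0.0457); that fit called 8.19% of all tested genes. Among the other extremes of the complexes, Ndufc1 (0.22 ± 0.13), Sdhc (-0.14 ± 0.08), Cyc1 (0.20 ± 0.18) and Atp5pb, a stator subunit (0.13 ± 0.09), had adjusted p values between 0.336 and 0.565.

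The c subunit is encoded by 3 genes whose mature protein is the same and whose letters differ, so their counts can be told apart where reads cross the differences. The last 120 coding bases before the stop codon, from GENCODE transcripts, are shown 5′ to 3′ with the 30 positions at which the genes differ in capitals.
Atp5g1: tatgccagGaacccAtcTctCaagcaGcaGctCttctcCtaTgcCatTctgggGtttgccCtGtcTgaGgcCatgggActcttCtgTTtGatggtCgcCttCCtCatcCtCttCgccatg
Atp5g2: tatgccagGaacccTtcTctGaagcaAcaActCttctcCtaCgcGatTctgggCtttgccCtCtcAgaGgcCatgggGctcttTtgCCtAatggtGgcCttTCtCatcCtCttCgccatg
Atp5g3: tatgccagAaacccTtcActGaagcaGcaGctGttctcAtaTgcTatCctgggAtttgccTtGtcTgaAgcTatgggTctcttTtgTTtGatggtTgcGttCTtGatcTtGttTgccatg
In this stretch Atp5g1 and Atp5g2 were 86.7% identical, Atp5g1 and Atp5g3 82.5%, and Atp5g2 and Atp5g3 77.5%. Shares of the summed FPKM of the 3 genes rest on implied lengths. That of Atp5g1 was 750 bases against 2675 in GENCODE, so the size of each share is uncertain. Atp5g3 made up 53.2%, 51.3% and 52.8% of this sum in control, 48.4% and 46.3% in LPS, and 55.5%, 58.6% and 56.0% in LPS+RCMNs libraries. The 3 groups did not overlap in this share, with LPS lowest and LPS+RCMNs highest. The share of Atp5g2 was 27.3% ± 0.829 in control, 28.6% ± 0.134 in LPS and 23.0% ± 1.82 in LPS+RCMNs libraries (SD, n = 3, 2 and 3), and that of Atp5g1 20.3% ± 0.96, 24.1% ± 1.68 and 20.3% ± 0.544. With LPS all 3 genes rose on the CPM scale, Atp5g1 by 1.74 ± 0.14, Atp5g2 by 1.55 ± 0.09 and Atp5g3 by 1.33 ± 0.14; with the surface removed their values were 0.28, -0.10 and -0.32, and none was called.

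Tissue isoforms were low. Cox6a2, the heart and muscle form of subunit 6a, was at 0.97, 1.33 and 0.75 FPKM in control, 1.70 and 1.83 in LPS, and 1.10, 0.35 and 0.83 in LPS+RCMNs libraries, beside 122 to 316 for Cox6a1. It rose with LPS by 1.27 ± 0.45 (adjusted p = 0.0319, edgeR), and the LPS values were above all others. The call was lost with the surface removed (0.07, adjusted p = 0.909, edgeR) and by limma on log2(FPKM + 1) (0.46, adjusted p = 0.0556). Cox6a2 had 4 to 23 counts a library. Cox7a1 took 0.883% ± 0.243 of the summed FPKM of Cox7a1, Cox7a2 and Cox7a2l in control, while Cox7a2l took 48.1% ± 1.5 in control, 34.3% ± 1.39 in LPS and 46.2% ± 4.93 in LPS+RCMNs libraries. Cox7a2l, at 1031 bases longer than Cox7a2 at 705, rose by 1.07 ± 0.12 with LPS.

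The 4 members not tested were Cox4i2, the lung and hypoxia form of subunit 4, Cox6b2, the testis form of subunit 6b, Ndufa4l2, a paralog of Ndufa4 known to be induced by hypoxia, and Ndufb4b, a copy of Ndufb4. Cox4i2 had 0 to 4 counts a library and Cox6b2 had 2 in 1 LPS library and 0 in the others, Ndufb4b 3 in the other LPS library and 0 elsewhere, and Ndufa4l2 at most 1. A count of 0 allowed a level of up to 0.130 to 0.182 CPM, depending on the library, counting error only.

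Ndufb4, an accessory subunit of complex I on chromosome 16, has a copy, Ndufb4c, on chromosome 15. GENCODE annotates Ndufb4c as a processed pseudogene without a coding part, so its transcript less the stop codon was compared. It is identical to Ndufb4 over all 387 coding bases of Ndufb4, so how the authors' counting split reads between them is uncertain. The 2 rows were listed at 60.7, 46.3 and 45.3 and at 31.9, 28.5 and 30.4 FPKM in control, 108 and 114 and 61.5 and 64.5 in LPS, and 44.9, 57.0 and 47.9 and 28.1, 40.4 and 31.1 in LPS+RCMNs libraries. Ndufb4c took 34.4% to 41.5% of their sum in every library.

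Other genes of the pathway were read from fixed lists. Of 44 tested assembly factors, which build the complexes without staying in them, 33 were called higher in LPS than in control and 1 lower, with a median of 0.72 and a median length of 1363 bases; 31 were lower and 2 higher in LPS+RCMNs than in LPS, and over all tested genes the shares were 31.4%, 32.1%, 29.5% and 29.8%, in the same order. The 2 of smallest p were Ndufaf2, a complex I assembly factor (1.77 ± 0.13), and Surf1, a complex IV assembly factor (1.39 ± 0.11), while Cox15, an enzyme of heme A synthesis (4749 bases), was lower (-0.50 ± 0.12) and was not called with the surface removed (0.07, adjusted p = 0.635, edgeR). With the surface removed 16 assembly factors were called higher and 2 lower in LPS, with a median of 0.10, against 21.2% and 21.7% of all tested genes; in LPS+RCMNs against LPS, 13 were called lower and 2 higher (median -0.21), against 20.1% and 18.8%.

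Of 20 genes for electron carriers and coenzyme Q synthesis, 11 were called higher in LPS and 1 lower (31.4% and 32.1% of all tested genes), with a median of 0.47. With the surface removed 5 were called higher and 2 lower, with a median of 0.15, against 21.2% and 21.7% of all tested genes. Cycs, cytochrome c, rose by 2.03 ± 0.12 (adjusted p = 2.36e-06, edgeR) with a length of 3105 bases, and kept 1.91 with the surface removed (adjusted p = 9.71e-06). It was lower in LPS+RCMNs than in LPS (-1.54 ± 0.12) and higher than in control (0.49 ± 0.11, adjusted p = 0.0341); the last call was lost with the surface removed (0.38, adjusted p = 0.0624, edgeR). Etfb, the electron transfer flavoprotein beta subunit, rose by 1.22 ± 0.10 with LPS and was not called with the surface removed (0.02, adjusted p = 0.849, edgeR). Coq8a, an atypical kinase of coenzyme Q synthesis, was lower (-1.94 ± 0.40, and -1.80 with the surface removed).

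Of 17 tricarboxylic acid cycle genes outside complex II, 15 were called higher in LPS and none lower (31.4% and 32.1% of all tested genes). In LPS+RCMNs against LPS 15 were lower and 1 was higher (29.5% and 29.8% of all): Ogdh, a subunit of the oxoglutarate dehydrogenase complex (0.37 ± 0.11, adjusted p = 0.0196, edgeR), which was not called with the surface removed (-0.14, adjusted p = 0.429). Of the 17, once the surface was removed, 4 were called higher and 1 lower in LPS (median 0.16), against 21.2% and 21.7% of all tested genes. Then 7 were lower and none higher in LPS+RCMNs against LPS (median -0.30), where 20.1% and 18.8% of all were. Idh3b and Idh3g, subunits of isocitrate dehydrogenase, rose by 1.06 ± 0.08 and 0.99 ± 0.10 with LPS, and were not called with the surface removed (0.17 and 0.01, adjusted p of 0.0945 and 0.964, edgeR). In LPS+RCMNs against control 2 were lower, Suclg2, a succinyl-CoA synthetase subunit (-0.51 ± 0.12), and Fh1, fumarase (-0.39 ± 0.10), with adjusted p of 0.0385 and 0.0497 in edgeR. Of all tested genes 7.56% were called there in either direction. The phosphate and adenine nucleotide carriers had 3 tested genes, and 3 rose with LPS (31.4% of all tested genes). Among them were the translocases Slc25a4 (1.27 ± 0.08) and Slc25a5 (1.58 ± 0.11). With the surface removed 2 of the 3 were called higher (21.2% of all), with a median of 0.21.

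Of 13 tested regulators of mitochondrial gene expression, 2 were called higher in LPS and 3 lower, with a median of -0.08 and a median length of 3722 bases (31.4% and 32.1% of all tested genes). With the surface removed 5 were called higher and 1 lower (median 0.24), against 21.2% and 21.7% of all tested genes. In LPS+RCMNs against LPS 2 were called higher and 3 lower (median -0.04), against 29.8% and 29.5% of all tested genes. With the surface removed 1 was called higher and 7 lower there (median -0.35), against 18.8% and 20.1%. Ppargc1b, the coactivator PGC-1 beta, was lower in LPS than in control (-2.0 ± 0.19, adjusted p = 1.93e-05, edgeR) and higher in LPS+RCMNs than in LPS (2.44 ± 0.19). It is a long gene (10263 bases), and with the surface removed the values were -0.82 and 1.38 (adjusted p of 0.00589 and 0.000566). Esrra, the receptor ERR alpha, rose by 0.55 ± 0.10 with LPS, and Tfb1m, an rRNA methyltransferase of mitochondria, by 1.07 ± 0.18. Pprc1, a related coactivator, was lower in LPS by a log2 change of -0.85 ± 0.16 on the CPM scale, and was not called with the surface removed (-0.29, adjusted p = 0.141, edgeR).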

How the data were processed

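Estimated read counts and FPKM per gene were deposited by the authors in 1 table. Per the file headers, the expected counts are not normalized, and the deposited FPKM are per kilobase of gene and M reads. The submitters' processing notes name the build mm10. Which aligner, counter and annotation were used, and whether strand was, is not given in the sources used here, so overlapping and antisense genes may share reads. Of the nonzero counts 77.8% were not whole (tolerance 0.001), and counts were rounded; 4 columns of per-sample values match no sample and were not used. Genes were filtered with filterByExpr, scaled with TMM and tested with edgeR 4.0.16 (R 4.3.3) quasi-likelihood over all 8 libraries without a replicate block, with Benjamini-Hochberg adjustment over all tested genes and a threshold of 0.05. Standard errors are the log2 fold change divided by the root of F. Gene length was implied by counts and FPKM (FPKM of at least 0.2). A loess surface (span 0.4) of each library on length and mean level was used as an offset. The tests were checked on simulated data. DESeq2 1.42.0 and limma 3.58.1 on log2(FPKM + 1) were alternatives. Intervals and the limit of 3 counts cover counting error only.

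Named with values were members fixed by role (1 is not reported here), the extremes of each complex and comparison, members not called or not tested, tissue isoforms and the 3 of highest level. The other members named, such as Ndufs4, Cox6c and Ndufb10, were chosen after their values were seen. The members and lists were chosen with earlier results of these data known.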

Additional observations from a re-analysis of the deposited data

How the results depend on the processing

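Under DESeq2, median-ratio size factors, no filter, a stricter filter, a robust prior and fits of only the groups compared, the counts of members called stayed within 1.5 times of those reported. Leaving out each library in turn gave 76 to 80 members higher in LPS than in control (median 1.49 to 1.60), 76 to 80 lower in LPS+RCMNs than in LPS (median -1.63 to -1.49), and 0 to 2 lower in LPS+RCMNs than in control (median -0.05 to 0.07), the 2 without LPS+RCMNs replicate 2; a lone LPS library is then assumed to vary like the other groups. Whether replicate numbers pair the libraries was not settled. Same-numbered control and LPS+RCMNs libraries had correlations of deviations of -0.28, -0.34 and 0.20, and control and LPS libraries of 0.19 and 0.14. Those of LPS and LPS+RCMNs libraries were -0.11 and -0.14. Deviations within a group sum to 0, so these correlations depend on each other and cannot exclude pairing. A replicate block gave 76 higher, 77 lower and 0 called in the 3 comparisons. Without both libraries that stood apart, 1 member was called higher and 5 lower in LPS+RCMNs than in control, and Cox7a2l moved to 0.20. With a minimum absolute log2 fold change of 1, 67 were higher in LPS and 67 lower in LPS+RCMNs than in LPS.

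Limma on log2(FPKM + 1) and log2(FPKM + 0.1) gave medians of 1.04 and 1.05 with 1 member lower in LPS versus control, -1.13 and -1.14 in LPS+RCMNs versus LPS, and 1 lower in LPS+RCMNs versus control; under both, LPS versus control was -0.29 for Ndufs1 and -0.17 for Sdha, and LPS+RCMNs versus LPS 0.15 for Ndufs1. The median of all genes moves under FPKM, as given in the report. For the other changes the cause was not tested.

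With a trend on length alone removed, 27 members were higher and 8 lower in LPS versus control (median 0.15), 34 lower in LPS+RCMNs versus LPS (median -0.27) and 2 lower in LPS+RCMNs versus control. Of 11692 tested genes with a length, 2772 were called higher and 2513 lower in LPS versus control. In LPS+RCMNs versus LPS 2164 were higher and 2532 lower, and in LPS+RCMNs versus control 505 and 380. Of all 80 members, 28 had the opposite sign in the first comparison and 15 in the other. Here and below, the values listed are those of members named with values in the report that were called with or without the correction. They were Atp5g3 0.00, Cox6a2 -0.14, Cox7a1 -1.45, Cox7c -0.10, Ndufa1 -0.16, Ndufa4 -0.24, Ndufb9 -0.01, Ndufv3 -0.68, Sdhb -0.21, Sdhc -0.23 and Uqcr11 -0.07 in the first comparison and Cox7c 0.00, Ndufa4 0.03, Ndufv3 0.29, Sdhb 0.09 and Sdhc 0.03 in the other.

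With the length and level surface removed the counts were 11 higher and 14 lower (median -0.02), 6 higher and 20 lower (median -0.09), and 3 lower, in the 3 comparisons. Of 80 members, 46 were below 0 in LPS versus control and 31 above 0 in LPS+RCMNs versus LPS. The members named in the report among them were, in LPS versus control, Atp5e -0.01, Atp5g2 -0.10, Atp5g3 -0.32, Cox4i1 -0.04, Cox7a1 -1.31, Cox7a2l -0.13, Cox7c -0.29, Cox8a -0.09, Ndufa1 -0.11, Ndufa4 -0.41, Ndufb9 -0.12, Ndufs8 -0.02, Ndufv3 -0.72, Sdhb -0.44, Sdhc -0.59, Sdhd -0.04 and Uqcr11 -0.09, and in LPS+RCMNs versus LPS Atp5g3 0.33, Cox5a 0.12, Cox7a2l 0.03, Cox7c 0.26, Cox8a 0.03, Ndufa4 0.25, Ndufb9 0.08, Ndufv3 0.34, Sdhb 0.31 and Sdhc 0.35. Without a call before or after, Ndufs1 was at -0.05 in the first and Cox7a1 at 0.53 in the second. The other members called against their measured direction were Atp5k -0.56, Ndufa3 -0.51, Ndufa7 -0.45, Atp5mpl -0.39, Atp5md -0.38, Cox6c -0.32, Ndufa6 -0.31 and Atp5l -0.29 in the first, and Atp5md 0.37 and Atp5l 0.24 in the second.

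Fitting the surface on other genes, chosen after seeing the data, gave 10 higher and 17 lower (median -0.06), 4 higher and 20 lower (median -0.12), and 4 lower (median -0.17). Of 11692 tested genes with a length, 2484 were called higher and 2548 lower in LPS versus control. In LPS+RCMNs versus LPS 2168 were higher and 2382 lower, and in LPS+RCMNs versus control 517 and 528. Of 80 members, 47 were below 0 in LPS versus control and 31 above 0 in LPS+RCMNs versus LPS. The named members among them were Atp5e -0.10, Atp5g2 -0.15, Atp5g3 -0.37, Cox4i1 -0.10, Cox5a -0.02, Cox7a1 -1.33, Cox7a2l -0.13, Cox7c -0.38, Cox8a -0.16, Ndufa1 -0.16, Ndufa4 -0.49, Ndufb9 -0.15, Ndufs8 -0.04, Ndufv3 -0.74, Sdhb -0.44, Sdhc -0.59, Sdhd -0.04 and Uqcr11 -0.16 in LPS versus control and Atp5g3 0.27, Cox5a 0.10, Cox7a2l 0.01, Cox7c 0.22, Cox8a 0.01, Ndufa4 0.23, Ndufb9 0.08, Ndufv3 0.33, Sdhb 0.30 and Sdhc 0.32 in LPS+RCMNs versus LPS. Ndufs1 was at -0.04 and Cox7a1 at 0.52, neither called. The others called against their measured direction were Atp5k -0.66, Ndufa3 -0.60, Ndufa7 -0.51, Atp5md -0.49, Atp5mpl -0.47, Cox6c -0.40, Atp5l -0.37, Ndufa6 -0.35, Atp5h -0.31 and Uqcrh -0.27 in the first, and Atp5md 0.36 in the second.

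GENCODE length, also chosen after seeing the data, gave 21 higher and 3 lower (median 0.13), 0 higher and 32 lower (median -0.26), and 2 lower. Of 11629 tested genes with that length, 2661 were called higher and 2699 lower in LPS versus control. In LPS+RCMNs versus LPS 2415 were higher and 2575 lower, and in LPS+RCMNs versus control 494 and 431. Of 79 members with that length, 27 were below 0 in LPS versus control and 12 above 0 in LPS+RCMNs versus LPS. The named members among them were Atp5g2 -0.12, Atp5g3 -0.27, Cox7a2l -0.08, Cox7c -0.03, Ndufa1 -0.17, Ndufa4 -0.26, Ndufb9 -0.01, Sdhb -0.33 and Sdhd -0.05 in LPS versus control and Atp5g3 0.28, Cox5a 0.12, Cox7c 0.01, Ndufa4 0.10 and Sdhb 0.21 in LPS+RCMNs versus LPS. Without a call before or after, Ndufs1 was at -0.12 and Cox7a1 at -1.09 in the first and 0.33 in the second, and of the other members Ndufa7 was called lower, at -0.35, in the first. With 2 LPS libraries, precision is limited by their number, and Cox6a2 and Cox7a1 rest on few counts.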
